A study of Mus musculus with 18 samples.

Results

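The insulin-like growth factor (IGF) axis was followed in whole mouse islets of Langerhans through 10 genes, chosen by symbol from the 53801 mouse genes listed in the count tables. They encode the ligands Igf1 and Igf2, the receptor Igf1r, the binding proteins Igfbp2, Igfbp3, Igfbp4, Igfbp5, Igfbp6 and Igfbp7, and the related Igfbpl1. RNA-seq was run on 18 libraries of islets, all from mice fed normal chow and aged 5 weeks. The animals carried 1 copy of the S64F change in MafA (S64F/+), a beta-cell transcription factor of the insulin genes, or were wild type (WT). There were 4 male S64F/+, 4 male WT, 5 female S64F/+ and 5 female WT libraries. The series' title names MODY, an inherited form of diabetes, and a dysfunction biased to males. The strain and the way the allele was made are not given in the labels used here, and a gene count sums both Mafa alleles.

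IGF1 and IGF2 are small secreted proteins related to insulin. They act through the tyrosine kinase receptor encoded by Igf1r, which recruits insulin receptor substrates and activates PI3K and AKT. Most of the ligand in tissue is held by binding proteins, which slow or locally direct its action and release it when proteases cut them. In islets the axis is known for its part in beta-cell growth and survival, and IGF1 is counted among the gene products that mature beta cells keep low.

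In GENCODE M21 on GRCm38, all 10 genes are protein coding. Igf1 lies on chromosome 10 (87858265 to 87937042, plus strand), Igf1r on chromosome 7 (67952827 to 68233668, plus strand) and Igf2 on the same chromosome (142650766 to 142666816, minus strand). Igf2 lies 11.8 kb from Ins2, the major mouse insulin gene, and 72.6 kb separate it from H19, an imprinted noncoding RNA. Igfbp2 (72824503 to 72852474, plus strand) and Igfbp5 (72857932 to 72874884, minus strand) lie tail to tail on chromosome 1, 5.46 kb apart. Igfbp3 (7206086 to 7213923, minus strand) and Igfbp4 (99041244 to 99054392, plus strand) are on chromosome 11. Igfbp6 is on chromosome 15 (102144362 to 102149511, plus strand), Igfbp7 on chromosome 5 (77349240 to 77408041, minus strand) and Igfbpl1 on chromosome 4 (45809468 to 45826923, minus strand). Some loci overlap other genes, and without a stated strand setting reads there cannot be told apart. Gm49394, a protein-coding gene on the same strand with 142 counts over all libraries, covers 16048 bases of the Igf2 locus, so the counts of Igf2 are uncertain. Polr2b, an RNA polymerase subunit gene on the other strand, overlaps the end of Igfbp7 by 85 bases.

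RefSeq promoter windows, the 250 bases before a listed start on GRCm38.p6, were matched for 9 of the 10 genes, in 13 windows. The 4 below belong to the ligand, the receptor and the binding proteins with the clearest changes between groups, and stand 5′ to 3′ on the gene's own strand with capitals marking a TATAAA match.
Igf1, chr10:87860861-87861110: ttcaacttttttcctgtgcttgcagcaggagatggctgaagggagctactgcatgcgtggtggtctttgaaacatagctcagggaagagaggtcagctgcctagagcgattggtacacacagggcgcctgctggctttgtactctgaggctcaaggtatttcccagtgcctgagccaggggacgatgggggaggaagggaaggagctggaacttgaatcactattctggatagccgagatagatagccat
Igfbp4, chr11:99040994-99041243: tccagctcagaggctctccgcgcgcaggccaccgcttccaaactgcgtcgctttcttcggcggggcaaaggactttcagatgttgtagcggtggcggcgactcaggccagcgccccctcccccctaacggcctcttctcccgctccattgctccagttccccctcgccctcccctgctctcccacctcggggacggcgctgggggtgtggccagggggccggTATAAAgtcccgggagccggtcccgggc
Igfbp5, chr1:72874866-72875115: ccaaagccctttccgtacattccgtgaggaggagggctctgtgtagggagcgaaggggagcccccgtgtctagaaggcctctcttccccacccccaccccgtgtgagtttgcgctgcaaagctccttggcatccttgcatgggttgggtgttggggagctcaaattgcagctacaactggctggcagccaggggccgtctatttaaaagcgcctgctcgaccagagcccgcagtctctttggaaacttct
Igf1r, chr7:67952007-67952256: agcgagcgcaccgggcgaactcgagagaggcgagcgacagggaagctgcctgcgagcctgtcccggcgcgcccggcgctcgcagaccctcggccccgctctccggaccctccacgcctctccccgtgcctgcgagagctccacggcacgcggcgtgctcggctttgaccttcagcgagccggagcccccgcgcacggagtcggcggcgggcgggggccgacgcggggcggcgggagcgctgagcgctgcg
These windows differed among themselves in base composition. The Igf1 window has 52.8% G and C and 5 CpG dinucleotides, close to the median of 52.4% G and C over all 32851 windows. The Igf1r window has 77.6% and 42 CpG, the Igfbp4 window 69.2% and 22 CpG, and the Igfbp5 window 58.8% and 10 CpG. Both strands of all 13 windows were searched for 4 motifs, none of which overlapped another in these windows. The MAF half-site TGCTGA, the core of sites bound by MAF proteins, was found in the windows of Igfbp7 (191 bases before the start) and Igf2 (70 bases before a start) and occurs in 16.1% of all windows. TATAAA was found in Igfbp4, 28 bases before the start, and in Igfbp6, against 12.4% of all windows. The AP-1 site TGACTCA (4.46% of windows) was found in an Igfbp2 window, and the STAT site TTCNNNGAA (7.02%) in none of the 13. A match describes letters and no binding was measured.

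Library totals were 29.0 to 61.6 M counts in male S64F/+, 19.3 to 40.5 in male WT, 21.8 to 57.4 in female S64F/+ and 23.5 to 108.7 in female WT islets. After a filter on low counts, 18364 genes were tested, and all 10 members passed it. Values are in CPM, counts scaled to a common library size by trimmed means, with the SD over libraries. A gene was called at an edgeR adjusted p under 0.05, and ± after a log2 fold change is its SE. Whether each replicate was a separate animal is not stated in the labels, and p-values therefore cover only the variation among these libraries. Mafa itself was at 197 ± 52.3 CPM in male S64F/+ and 905 ± 80.8 CPM in male WT islets, and at 160 ± 49.8 CPM in female S64F/+ and 639 ± 117 CPM in female WT islets. Y-linked genes matched the sex label in 18 of 18 libraries. Defining markers of islet cells were abundant in every library, at summed levels of at least 127001 CPM for beta, 34165 CPM for alpha and 2728 CPM for delta cells.

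Per length of gene, Igfbp7 was the most abundant member and Igfbp3 the second in each of the 18 libraries. The deposited FPKM of Igfbp7, which encodes a secreted protein of vessel walls with weak IGF binding, averaged 148 in male S64F/+, 102 in male WT, 157 in female S64F/+ and 113 in female WT islets. Its share of the summed FPKM of the 10 members was 71.9% ± 3.49 in male S64F/+ and 78.6% ± 2.91 in male WT islets, and 82.9% ± 2.86 in female S64F/+ and 77.9% ± 3.43 in female WT islets. The Igfbp7 level thus exceeded those of all other members together in every group. Igfbp3 encodes the main IGF carrier of the circulation. Its FPKM lay between 17.97 and 32.3 in male S64F/+ and between 13.4 and 17.8 in male WT islets, and between 13.2 and 21.5 in female S64F/+ and between 14.6 and 20.7 in female WT islets. FPKM rests on plain library totals without the scaling by trimmed means, so it serves to compare genes and not groups. In scaled CPM the male ranges of Igfbp3 overlapped, at 69.3 to 119 in S64F/+ and 62.4 to 71.4 in WT islets. So did those of Igfbp7, at 284 to 327 and 180 to 285 CPM.

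Igfbp4, Igfbp5, Igfbp6 and Igf1r came next. Their FPKM averaged between 0.820 (Igfbp6, female WT) and 9.11 (Igfbp5, male S64F/+), and their order changed between libraries: Igfbp5 ranked between 3 and 5, Igf1r and Igfbp4 between 3 and 7, and Igfbp6 between 3 and 9. Ranges of neighbours in this stretch overlapped in male WT and female S64F/+ islets, whereas Igf1r lay below Igfbp4 in male S64F/+ islets and Igfbp6 below Igfbp4 in female WT islets. Igf1 ranked 7 or 8 in every library, with mean FPKM of 1.26 in male S64F/+, 0.177 in male WT, 0.593 in female S64F/+ and 0.332 in female WT islets. Igf2 and Igfbp2 stayed between rank 8 and rank 10, with overlapping ranges in each group. Igfbpl1 ranked between 4 and 10, with mean FPKM of 3.45 in male S64F/+ and 0.00574 in male WT islets, and 2.60 in female S64F/+ and 0.0577 in female WT islets. The gene lengths implied by the FPKM values exceed the merged GENCODE exons by up to 3.14-fold, for Igf2 (17998 against 5723 bases, in a locus of 16051 bases). Dividing by the merged exons, an alternative chosen after seeing the data, left Igfbp7 and Igfbp3 at ranks 1 and 2 in every group, and the Igfbp7 share at 78.3% in male S64F/+ and 84.1% in male WT islets. It changed 10 of the 40 group ranks, all among the less abundant members, so the order below rank 2 is approximate.

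**Figure D1:**
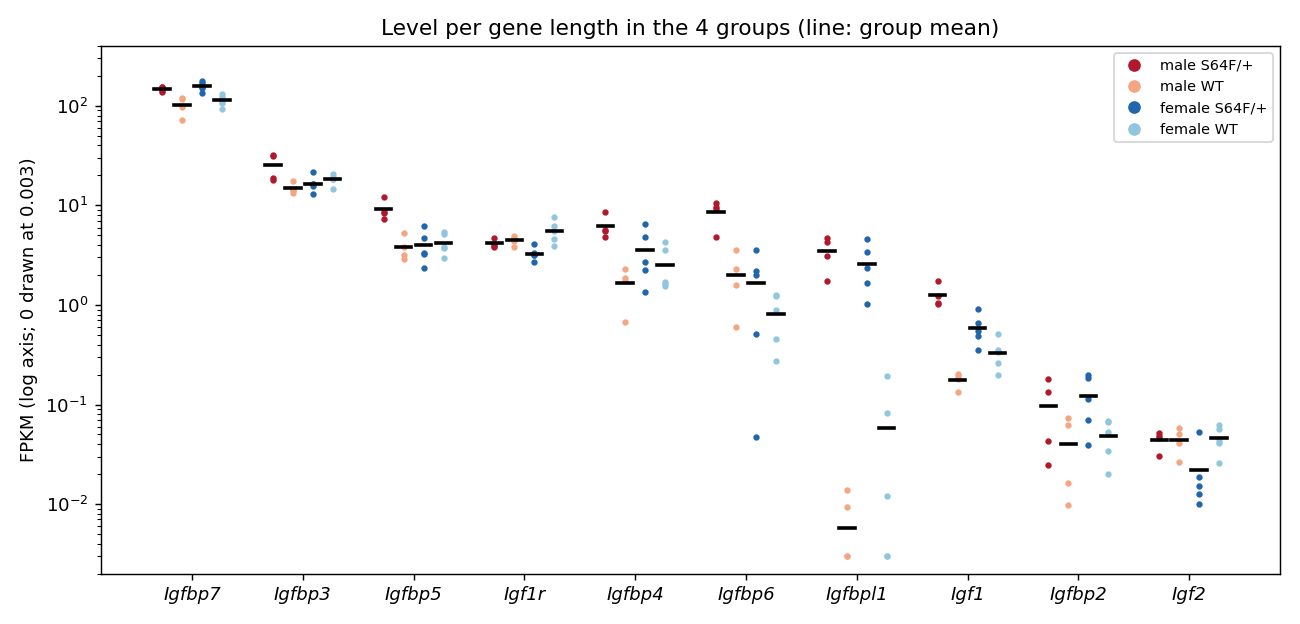
Deposited FPKM of the 10 genes (log axis, a value of 0 drawn at 0.003) in each library, with points coloured by group and a line at the group mean. Igfbp7 and Igfbp3 lie above all other members in all 18 libraries, and Igfbpl1 drops below 0.2 in every WT library while it stays above 1 in every S64F/+ library.

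Male S64F/+ islets were first set against male WT islets, the sex named in the title. Igf1, Igfbp3, Igfbp4, Igfbp5 and Igfbpl1 rose in male S64F/+ islets, and no member fell. Of all 18364 genes tested, 15.4% were called higher and 12.3% lower in this comparison. The median log2 fold change of the 10 members was 1.02, against -0.03 for all genes tested, and 8 of the 10 values were above 0. Ranges of the groups were apart for 6 members, 5 higher (Igf1, Igfbp4, Igfbp5, Igfbp6 and Igfbpl1) and 1 lower (Igf1r), where 17.8% of all genes had ranges apart upward and 17.3% downward.

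Among the ligands, Igf1 had 23.9, 14.8, 17.5 and 14.9 CPM in male S64F/+ islets, against 2.27, 2.77, 3.16 and 3.61 CPM in male WT islets. The lowest S64F/+ library was above the highest WT library by a wide margin, and male S64F/+ 1 stood above the other S64F/+ libraries. The difference was 2.59 ± 0.28 on the log2 scale (edgeR adjusted p 4.12e-06), and it stayed between 2.41 and 2.69 when any library was left out. Igf2, the fetal growth factor of the imprinted locus beside Ins2, had 0.728, 0.834, 0.791 and 0.513 CPM in male S64F/+ islets, against 1.11, 0.890, 0.499 and 0.836 CPM in male WT islets. The groups overlapped, and at 15 to 51 counts per library the difference was not detectable (-0.21 ± 0.41, edgeR adjusted p 0.753; 0.016 with library-size scaling).

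The receptor gene Igf1r had 82.9, 74.8, 70.6 and 73.5 CPM in male S64F/+ islets, against 94.2, 93.2, 104 and 87.5 CPM in male WT islets. Every S64F/+ library lay below every WT library, but the fitted difference missed the threshold (-0.33 ± 0.12, edgeR adjusted p 0.0546). With only the male groups in the fit it passed (edgeR adjusted p 0.00581), as it did without female S64F/+ 1, female WT 3 or female WT 4 (0.0452, 0.0198 and 0.0288), and over all alternatives the adjusted p ran up to 0.669, with library-size scaling.

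**Figure D2:**
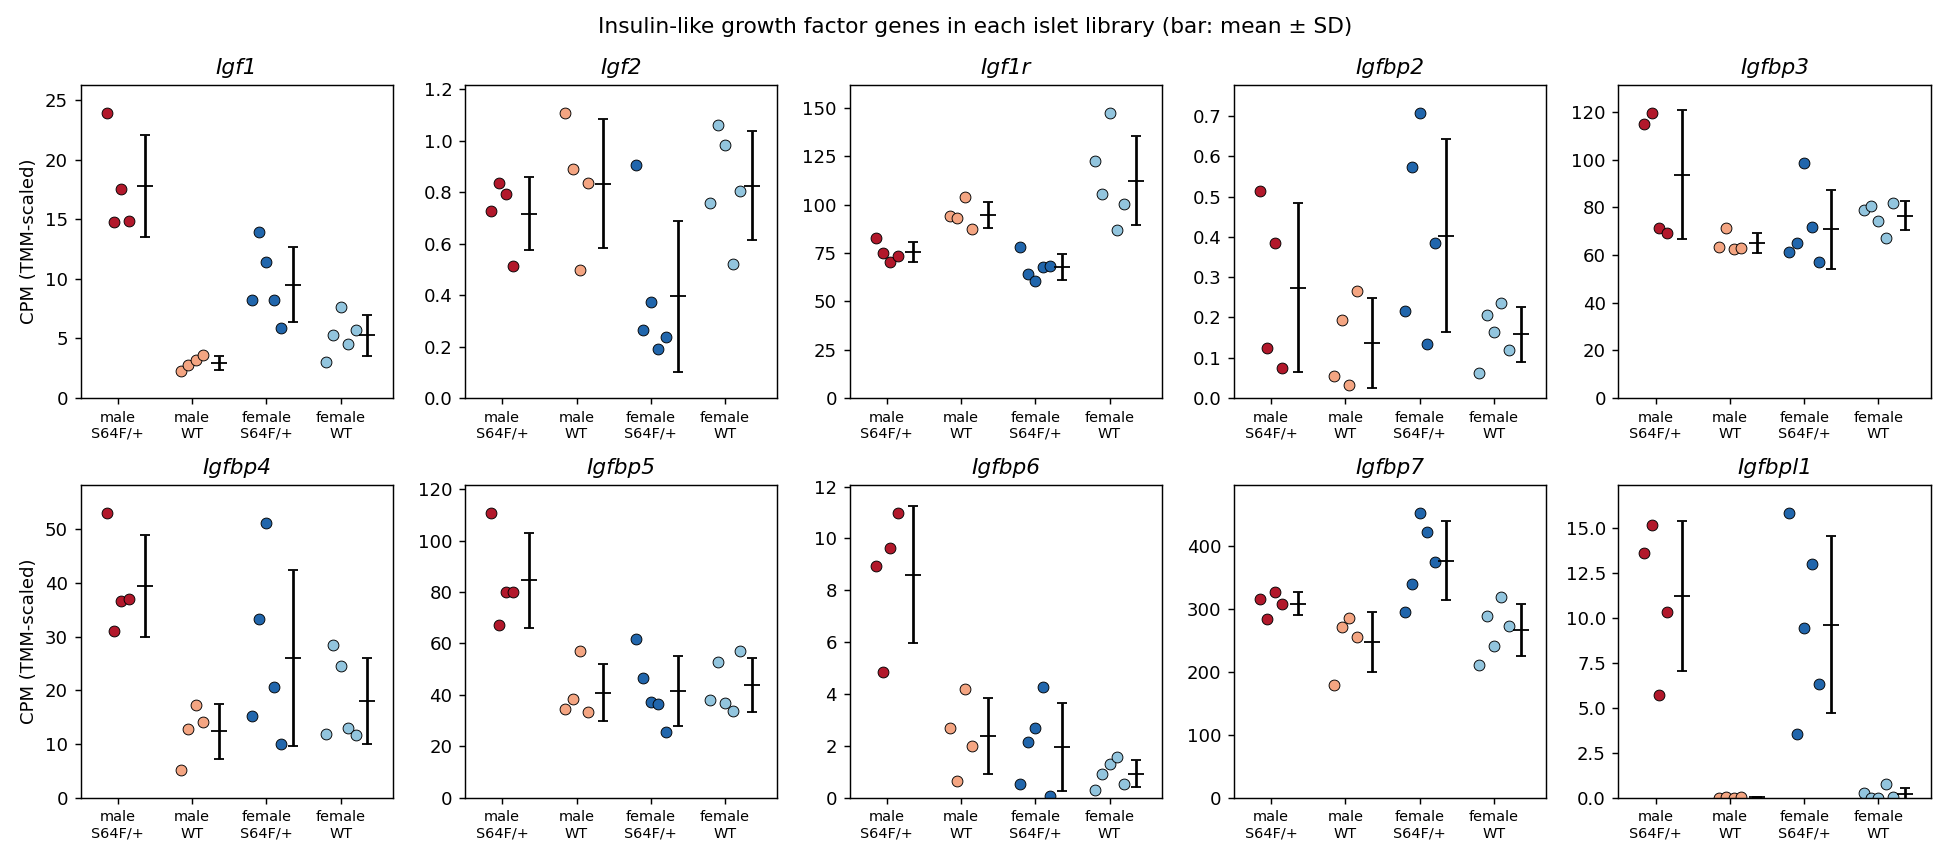
TMM-scaled CPM of each gene in each library (points), with the group mean and SD beside them and 1 panel per gene, each with its own linear axis. The male S64F/+ points lie above all male WT points for Igf1, Igfbp4, Igfbp5, Igfbp6 and Igfbpl1, and in females S64F/+ and WT points are apart for Igf1r and Igfbpl1 only.

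Among the binding proteins, Igfbp5, which also forms large complexes with IGF in the circulation, had 111, 67.1, 80.1 and 80.2 CPM in male S64F/+ islets, against 34.7, 38.3, 57.2 and 33.5 CPM in male WT islets. The groups were apart, although male WT 3 came near the lowest S64F/+ library. Igfbp5 rose by 1.05 ± 0.25 on the log2 scale (edgeR adjusted p 0.00558), a call kept in all 24 alternatives. Igfbp4, which holds IGF until the protease PAPP-A cleaves it, had 53.0, 31.0, 36.7 and 37.0 CPM in male S64F/+ islets, against 5.14, 12.9, 17.2 and 14.2 CPM in male WT islets. Its groups were apart too, with the highest value in male S64F/+ 1 and the lowest in male WT 1. Igfbp4 rose by 1.66 ± 0.48 on the log2 scale (edgeR adjusted p 0.0182), and without either of those libraries its adjusted p was 0.0529 and 0.0520, within a range of 0.00221 to 0.0529 over all alternatives.

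Igfbp3 had 115, 119, 71.3 and 69.3 CPM in male S64F/+ islets, against 63.6, 71.4, 62.4 and 62.9 CPM in male WT islets. Male S64F/+ 1 and 2 were high, and the other 2 libraries lay at the level of male WT 2. Igfbp3 passed the test (0.53 ± 0.18, edgeR adjusted p 0.0328), but not when only the male groups were fitted (0.0643) or without male S64F/+ 1 (0.118), male S64F/+ 2 (0.125), male WT 1 (0.0720), male WT 3 (0.0759) or male WT 4 (0.0789). The adjusted p ranged from 0.00502 to 0.125 over its alternatives.

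Igfbp6, which prefers IGF2 as its ligand, had 8.95, 4.85, 9.65 and 11.0 CPM in male S64F/+ islets, against 2.71, 0.650, 4.19 and 2.01 CPM in male WT islets. The groups did not overlap, but the spread within them was wide and the test did not pass (1.86 ± 0.81, edgeR adjusted p 0.104). It passed with only the male groups in the fit (edgeR adjusted p 0.0214) and without female S64F/+ 5 (0.0322), and the range over all alternatives was 0.0152 to 0.210. Igfbp7 had 316, 284, 327 and 308 CPM in male S64F/+ islets, against 180, 271, 285 and 255 CPM in male WT islets. The top WT library reached the lowest S64F/+ library, and the difference was not called (0.32 ± 0.15, edgeR adjusted p 0.128; 0.53 and 0.00801 with library-size scaling). Igfbp2, a binding protein of fetal and metabolic tissues, reached at most 36 counts in a library and could not be resolved (0.99 ± 0.70, edgeR adjusted p 0.322).

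Igfbpl1, a gene related to the binding proteins by sequence, was the member nearest to an on and off pattern. It had 13.6, 15.2, 5.72 and 10.4 CPM in male S64F/+ islets, against 0, 0.0481, 0 and 0.0380 CPM in male WT islets. The male WT libraries held 0, 2, 0 and 1 counts, so the gene was at or near the limit of detection there. Over the pooled counts, 2150 in S64F/+ and 3 in WT, the ratio was 432 with an exact 95% interval of 147 to 2094, which covers counting error only. The fitted call had an edgeR adjusted p of 7.53e-05, and the size of the fitted log2 value, 8.63 ± 1.18, depends on the prior count.

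In female islets, Igf1, Igfbp7 and Igfbpl1 rose and Igf1r fell in S64F/+. Of all genes tested, 10.2% were called higher and 11.0% lower. The median over the 10 members was 0.51, against 0.02 for all genes, with 6 values above 0. Ranges were apart for Igfbpl1 (higher) and Igf1r (lower), against 5.28% of all genes upward and 6.36% downward.

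Igf1 had 8.20, 13.9, 11.4, 8.19 and 5.86 CPM in female S64F/+ islets, against 3.05, 5.28, 7.67, 4.57 and 5.69 CPM in female WT islets. The groups overlapped, since female WT 3 exceeded female S64F/+ 5. Igf1 passed the test (0.86 ± 0.24, edgeR adjusted p 0.0157), and the call held in all 24 alternatives. Igf2 had 0.904, 0.265, 0.374, 0.192 and 0.238 CPM in female S64F/+ islets, against 0.756, 1.06, 0.985, 0.521 and 0.803 CPM in female WT islets. Here 4 of the S64F/+ libraries lay below all WT libraries and female S64F/+ 1 lay among the higher WT values. The difference missed the threshold (-1.04 ± 0.37, edgeR adjusted p 0.0523). With the replicate number as a block it passed (-1.19, edgeR adjusted p 0.0378), as it did without female S64F/+ 1 (-1.66, edgeR adjusted p 0.000826) or female WT 4 (-1.17, 0.0351) and with DESeq2 (-1.04, adjusted p 0.0377), and the range over all alternatives was 0.000826 to 0.127.

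Igf1r had 78.3, 64.01, 60.4, 67.8 and 68.1 CPM in female S64F/+ islets, against 122, 105, 147, 86.8 and 101 CPM in female WT islets. All S64F/+ libraries lay below all WT libraries, and the WT libraries varied more among themselves. Igf1r fell by 0.73 ± 0.11 on the log2 scale (edgeR adjusted p 0.000117), in all 24 alternatives.

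Igfbp7 was the binding protein called in females. It had 295, 340, 453, 422 and 374 CPM in female S64F/+ islets, against 211, 289, 241, 319 and 273 CPM in female WT islets. The ranges met, with female S64F/+ 1 below female WT 4, and the log2 fold change was 0.50 ± 0.13 (edgeR adjusted p 0.0127). Polr2b, which shares the end of the locus, had log2 fold changes of -0.01 ± 0.06 in females and -0.04 ± 0.06 in males (edgeR adjusted p 0.923 and 0.676). Igfbp3, Igfbp4 and Igfbp5, which rose in males, did not pass here. Igfbp5 had 61.6, 46.6, 37.3, 36.5 and 25.4 CPM in female S64F/+ islets, against 38.1, 52.6, 36.8, 33.9 and 57.2 CPM in female WT islets. The groups covered the same range, and the log2 fold change was -0.08 ± 0.23 (edgeR adjusted p 0.845). Igfbp4 had 15.2, 33.2, 51.1, 20.6 and 10.1 CPM in female S64F/+ islets, against 11.9, 28.5, 24.6, 12.9 and 11.7 CPM in female WT islets. Female S64F/+ 3 and 2 were high, and the test did not pass (0.53 ± 0.42, edgeR adjusted p 0.411). Igfbp3 (-0.11 ± 0.16), Igfbp6 (1.09 ± 0.75) and Igfbp2 (1.32 ± 0.59) were not called either, with edgeR adjusted p of 0.659, 0.330 and 0.125.

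Igfbpl1 had 15.8, 3.57, 9.43, 13.0 and 6.34 CPM in female S64F/+ islets, against 0.288, 0, 0, 0.781 and 0.0472 CPM in female WT islets. Every S64F/+ library was above every WT library, although the S64F/+ values themselves differed widely. Among the WT libraries, female WT 1 and 4 held 32 and 33 counts and the others 0, 0 and 2. Over the pooled counts, 2066 in S64F/+ and 67 in WT, the ratio was 44.4 (exact 95% interval 34.8 to 57.5). The gene rose (edgeR adjusted p 0.000139), in all 24 alternatives, and with males included 9 of 9 S64F/+ libraries were above 9 of 9 WT libraries.

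**Figure D3:**
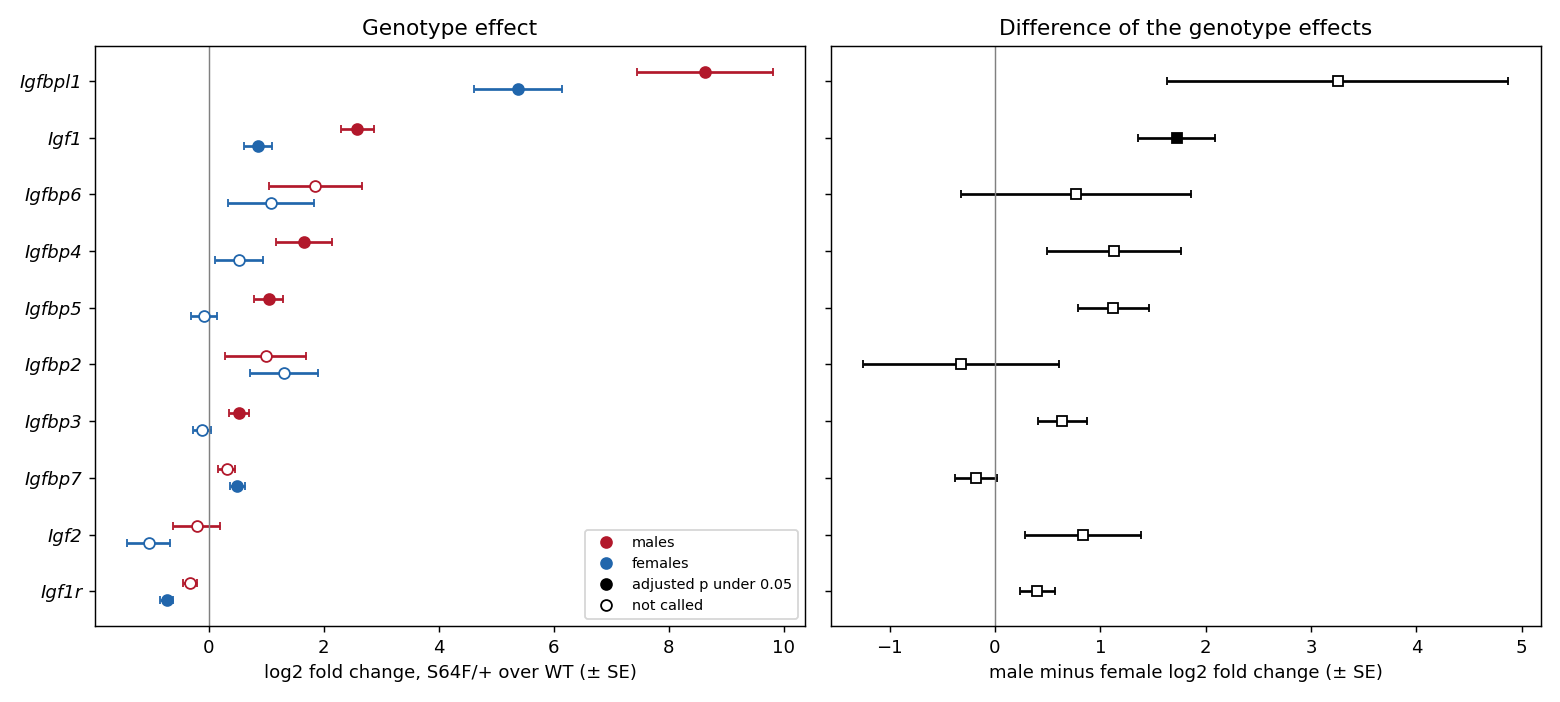
Left, log2 fold change of S64F/+ over WT with its SE for each gene in males and females; right, the male minus female difference of these values with its SE. Filled symbols passed an edgeR adjusted p under 0.05, and on the right Igf1 alone is filled.

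The difference between the male and the female genotype effect was called for 1 member, Igf1, against 2.87% of all genes called higher and 1.60% lower. The Igf1 effect in males exceeded that in females by 1.72 ± 0.36 on the log2 scale (edgeR adjusted p 0.0172, and at most 0.0392 over its alternatives). The S64F/+ libraries of males and females were apart, at 14.8 to 23.9 CPM in males and 5.86 to 13.9 CPM in females. The WT libraries leaned the other way, at 2.27 to 3.61 CPM in males and 3.05 to 7.67 CPM in females. For Igfbp5 the difference was 1.12 ± 0.34 (edgeR adjusted p 0.0638, and 0.0110 to 0.138 over its alternatives), and it passed with library-size scaling (1.35), with DESeq2, and without female S64F/+ 1 or female WT 4. Igfbp3 (0.64 ± 0.23) and Igfbp4 (1.13 ± 0.64) leaned toward males and were not called, with edgeR adjusted p of 0.110 and 0.286. For Igf1r (0.40 ± 0.16), Igfbp7 (-0.18 ± 0.20; 0.062 with library-size scaling) and Igfbpl1 (3.25 ± 1.62) no difference between the sexes was shown, with edgeR adjusted p of 0.143, 0.611 and 0.230.

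Male and female S64F/+ islets were also set against each other directly. Igf1 (0.91 ± 0.25, edgeR adjusted p 0.0211) and Igfbp5 (1.03 ± 0.24, edgeR adjusted p 0.0104) were higher in males, against 8.00% of all genes called higher and 8.12% lower. Ranges were apart upward for these 2 and for Igfbp6, against 7.91% of all genes, and Igfbp6 did not pass (2.16 ± 0.76, edgeR adjusted p 0.0625). The Igf1 call was lost without male S64F/+ 1 (0.0812), female S64F/+ 4 (0.0532) or female S64F/+ 5 (0.0519), within a range of 0.00319 to 0.0812. Between male and female WT islets edgeR called 0 of 10 members, against 2.36% of all genes. Igf1 and Igf1r, both lower in males, had an unadjusted p under 0.05, and DESeq2 called Igf1 (-0.81, adjusted p 0.0436, against 0.113 with edgeR).

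Markers of the cells known to make several of these proteins moved with the male comparison. Of 12 stellate and fibroblast markers, 10 were called higher in male S64F/+ islets, and their summed level was 1632 to 2490 CPM in male S64F/+ and 250 to 585 CPM in male WT islets. Of 11 endothelial markers, 9 were called higher, with sums of 916 to 1065 CPM in male S64F/+ and 481 to 668 CPM in male WT islets. Macrophage markers gave 8 higher and 1 lower of 13, with sums of 138 to 183 CPM in male S64F/+ and 93.0 to 134 CPM in male WT islets. The marker called lower, C1qa, made up 68.7 of a mean sum of 115 CPM in male WT islets. In male S64F/+ islets it made up 37.7 of 157 CPM, so the macrophage sum mixes opposite movements. In females 1 of 12 stellate and fibroblast markers was called, with sums of 308 to 1106 CPM in female S64F/+ and 326 to 897 CPM in female WT islets. No endothelial marker of 11 was called in females (593 to 830 CPM in S64F/+ and 563 to 775 CPM in WT), and 6 of 13 macrophage markers were higher (108 to 190 CPM in S64F/+ and 85.6 to 122 CPM in WT). Beta-cell markers were called lower for 9 of 10 in males and 8 of 10 in females. Ductal markers were called higher for 6 of 9 in males and 4 of 9 in females, and Schwann and glial markers for 4 and 1 of 8. Over all genes, 15.4% were called higher and 12.3% lower in males, and 10.2% and 11.0% in females. The single stellate and fibroblast marker and the single Schwann and glial marker called in females were near or below that share. So was the single alpha-cell marker called in males, and these counts are no result about those lists. In males the ductal sums were 846 to 1005 CPM in S64F/+ and 575 to 603 CPM in WT islets, and the Schwann and glial sums 76.9 to 88.2 CPM in S64F/+ and 33.8 to 37.98 CPM in WT islets. In females the ductal sums were 633 to 726 CPM in S64F/+ and 534 to 615 CPM in WT islets, and the Schwann and glial sums 50.6 to 107.6 CPM in S64F/+ and 30.8 to 47.4 CPM in WT islets, so both were apart there too. Alpha-cell markers were called higher for 1 of 7 in males and 7 of 7 in females, where their sums were 59879 to 83027 CPM in S64F/+ and 34165 to 42457 CPM in WT islets. Delta-cell markers gave 3 higher and 1 lower of 5 in males and 4 higher in females, where their sums were 6073 to 8220 CPM in S64F/+ and 2759 to 4246 CPM in WT islets. Mesothelial markers summed to 16.6 to 57.7 CPM in male S64F/+ and 152 to 216 CPM in male WT islets, and to 20.5 to 60.1 CPM in female S64F/+ and 83.3 to 226 CPM in female WT islets, with 1 of 6 called lower in each sex, although the median log2 fold change of the 6 was above 0 (0.93 in males and 0.97 in females). These sums were mostly Msln alone, at a mean of 181 of 185 CPM in male WT and 155 of 156 CPM in female WT islets. They therefore describe Msln and not the list. No marker of these lists was at 0 in any group. In bulk islets fewer or more cells of a type and less or more RNA per cell cannot be told apart, and the part of these cells in the values of Igf1, Igfbp3, Igfbp4, Igfbp5, Igfbp6, Igfbp7 and Igfbpl1 was not tested.

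Library by library, Igfbp4 ran beside the stellate and fibroblast markers also within a group. Female S64F/+ 3 and 2 had the highest marker sums of their group (1106 and 991 CPM) and the highest Igfbp4 (51.1 and 33.2 CPM), and female S64F/+ 5 had the lowest of both (308 and 10.1 CPM). Female WT 2 and 3 (897 and 788 CPM) had the highest Igfbp4 of the WT females, and male WT 1 (250 CPM) the lowest Igfbp4 of all libraries. Igfbpl1 did not run beside these markers: female S64F/+ 1, with a marker sum of 633 CPM, had the highest Igfbpl1 of all libraries, and female WT 2, with 897 CPM, had 0 counts. Igf1 ran beside the marker sum in part. Female S64F/+ 2 and 3 were the highest of their group in both, and female S64F/+ 5 the lowest in both (5.86 CPM of Igf1). Among males, S64F/+ 1 was the highest of its group in both (2490 CPM of markers, 23.9 CPM of Igf1). Male S64F/+ 2 was the lowest in both (1632 and 14.8 CPM), with S64F/+ 4 close to it in Igf1 (14.9 CPM). Male WT 1 was the lowest of the WT males in both. Other libraries went the other way. From male WT 2 to 4 the marker sums fell from 585 to 537 CPM, while Igf1 rose from 2.77 to 3.61 CPM. Female WT 5 had the lowest marker sum of its group (326 CPM), but more Igf1 (5.69 CPM) than female WT 1, 2 and 4. Across genotypes, female S64F/+ 1 had more Igf1 (8.20 CPM, marker sum 633) than female WT 2 and 3 (5.28 and 7.67 CPM), whose marker sums were larger. These are comparisons of single libraries, and the part of stellate cells and fibroblasts was not tested. The ductal, Schwann and glial, alpha-cell and delta-cell sums, which were apart in females, were not set beside these genes.

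**Figure D4:**
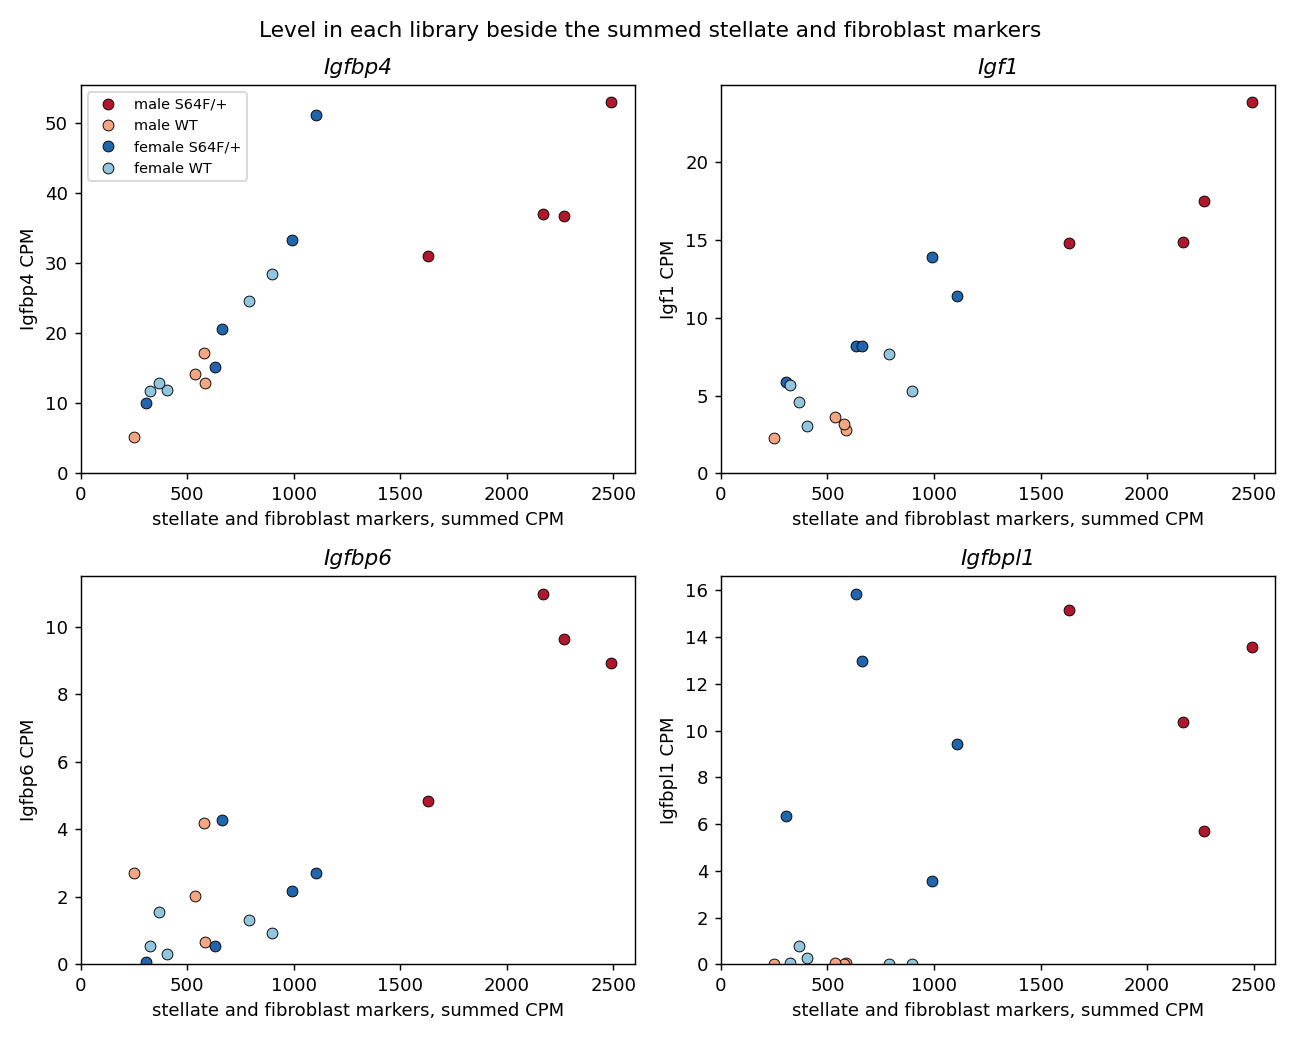
CPM of Igfbp4, Igf1, Igfbp6 and Igfbpl1 in each library (vertical) against the summed CPM of 12 stellate and fibroblast markers (horizontal), coloured by group. Igfbp4 climbs with the marker sum across groups up to about 1106 CPM, whereas Igfbpl1 separates S64F/+ from WT libraries between 308 and 897 CPM, where both genotypes have libraries.

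Among the other genes that bind, carry or release IGF, 5 of 9 tested rose and 2 fell in male S64F/+ islets, with a median of 1.16, against 15.4% of all genes called higher and 12.3% lower. Lrp1, an endocytic receptor that binds Igfbp3, rose to 164 ± 22.6 CPM in male S64F/+ islets, against 71.4 ± 12.8 CPM in male WT islets (1.19 ± 0.19, edgeR adjusted p 0.000183). The secreted serine proteases Htra3 (2.28 ± 0.52, edgeR adjusted p 0.00377) and Htra1 (1.64 ± 0.46, edgeR adjusted p 0.0132), the second of which can cut binding proteins, rose as well. Pappa and Pappa2, proteases of the binding proteins, passed narrowly (edgeR adjusted p 0.0473 and 0.0428) and lost the call in 11 and 9 of 24 alternatives. The members that fell were Igfals (-0.48 ± 0.15, edgeR adjusted p 0.0258), whose product stabilises the circulating complex, and Tmem219 (-0.35 ± 0.11, edgeR adjusted p 0.0201), a receptor for Igfbp3. The Igfals call was lost in 5 of 24 alternatives, without male S64F/+ 1, male S64F/+ 4, male WT 1 or male WT 4 (adjusted p up to 0.0876) and with library-size scaling (-0.26, adjusted p 0.223). The Tmem219 call was lost in 4, without male S64F/+ 1 or male WT 4 (up to 0.0608), with no filter on low counts and with library-size scaling (-0.13, adjusted p 0.328). In females 0 of 9 rose and Igfals fell (-0.42 ± 0.14, edgeR adjusted p 0.0382), a call lost in 8 of 24 alternatives. Of all genes, 10.2% were called higher and 11.0% lower in females. The female counts are near these shares and are no result about the list. Igfbp1 did not pass the count filter. Stellate, fibroblast and endothelial markers moved with these genes in males, as given above, and their part was not tested.

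Among 13 receptors and adaptors, 3 rose and 1 fell in males, and 1 rose and 3 fell in females, where 10.2% of all genes were called higher and 11.0% lower. In males 15.4% of all genes were called higher and 12.3% lower. The 3 that rose in males and the 3 that fell in females were not far above these shares, given 13 genes, and the single genes were below them. These counts are therefore no result about the list. Grb10, an imprinted adaptor that dampens insulin and IGF receptor signalling, rose in both sexes, to 137 ± 6.34 CPM in male S64F/+ against 76.8 ± 5.37 CPM in male WT islets (0.83 ± 0.09, edgeR adjusted p 5.05e-06). In females it was at 136 ± 9.08 CPM in S64F/+ and 81.9 ± 11.6 CPM in WT islets (0.73 ± 0.08, edgeR adjusted p 6.74e-06). Insrr, the insulin receptor-related receptor, fell in both sexes, by 0.66 ± 0.14 in males and by 1.04 ± 0.12 in females on the log2 scale (edgeR adjusted p 0.00145 and 8.77e-06), and the male call was lost in 1 alternative. Gab1, a docking protein below receptor tyrosine kinases, rose in males (1.30 ± 0.14, edgeR adjusted p 3.73e-06), and its effect in males exceeded that in females by 1.01 ± 0.19 (edgeR adjusted p 0.0107). Sh2b2, an adaptor of the insulin receptor, rose in males (1.55 ± 0.39, edgeR adjusted p 0.00605). Insr (-0.37 ± 0.10, edgeR adjusted p 0.0125, lost in 2 of 24 alternatives) and the insulin receptor substrate gene Irs1 (-0.71 ± 0.13, edgeR adjusted p 0.000882) fell in females.

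Of 26 PI3K, AKT and FOXO genes, 3 rose and 4 fell in males (median -0.07), and 2 rose and 10 fell in females (median -0.16). The male counts were near the shares over all genes (15.4% higher and 12.3% lower) and are no result about these genes. In females 11.0% of all genes were called lower, and with only the female groups in the fit 7 of the 26 were called in either direction. Foxo1, the transcription factor that AKT keeps out of the nucleus, fell by 0.37 ± 0.08 in males and by 0.39 ± 0.07 in females (edgeR adjusted p 0.00145 and 0.000513). The male Foxo1 call was lost with library-size scaling, as its adjusted p rose to 0.344. Pik3cd and Inpp5d, a kinase subunit and a phosphatase best known from leukocytes, rose in males (1.24 ± 0.19 and 1.12 ± 0.20, edgeR adjusted p 8.80e-05 and 0.000361), beside the macrophage markers given above. In females Pik3cd was also called higher (0.50 ± 0.16, edgeR adjusted p 0.0365, lost in 10 of 24 alternatives), and Inpp5d was not called (0.31 ± 0.17, edgeR adjusted p 0.230). The relation of Pik3cd and Inpp5d to macrophages was not tested. Eif4ebp1, a translation repressor controlled by mTORC1, rose in males (0.75 ± 0.21, edgeR adjusted p 0.0108) and in females (0.84 ± 0.18, edgeR adjusted p 0.00288). The difference between the sexes was called for none of the 26 genes by edgeR.

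Around Igf2, the genes of the locus did not move as a block. Ins2 fell in males, to 91635 ± 4704 CPM in S64F/+ against 163741 ± 21999 CPM in WT islets (-0.84 ± 0.21, edgeR adjusted p 0.00611). Th, tyrosine hydroxylase, fell in both sexes, to 7.63 ± 1.71 CPM in male S64F/+ against 45.6 ± 6.54 CPM in male WT islets and to 8.98 ± 3.39 CPM in female S64F/+ against 51.1 ± 5.57 CPM in female WT islets. H19 was called higher in males (edgeR adjusted p 0.0164) at 0.340 ± 0.291 CPM in S64F/+ and 0.0226 ± 0.0314 CPM in WT islets, and without male S64F/+ 1 or male WT 4 the adjusted p was 0.0594 and 0.0514. None of the IGF2 mRNA-binding protein genes was called in either sex, and Igf2os did not pass the count filter. Of 9 growth hormone and prolactin input genes, only the cytokine suppressor Socs1 rose in males (1.22 ± 0.26, edgeR adjusted p 0.00169). This is below the 15.4% of all genes called higher in males and is no result about the list. Stat5a (-0.38 ± 0.08, edgeR adjusted p 0.00182) and the prolactin receptor gene Prlr (-0.43 ± 0.14, edgeR adjusted p 0.0425, lost in 11 of 24 alternatives) fell in females, where 11.0% of all genes were called lower.

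**Figure D5:**
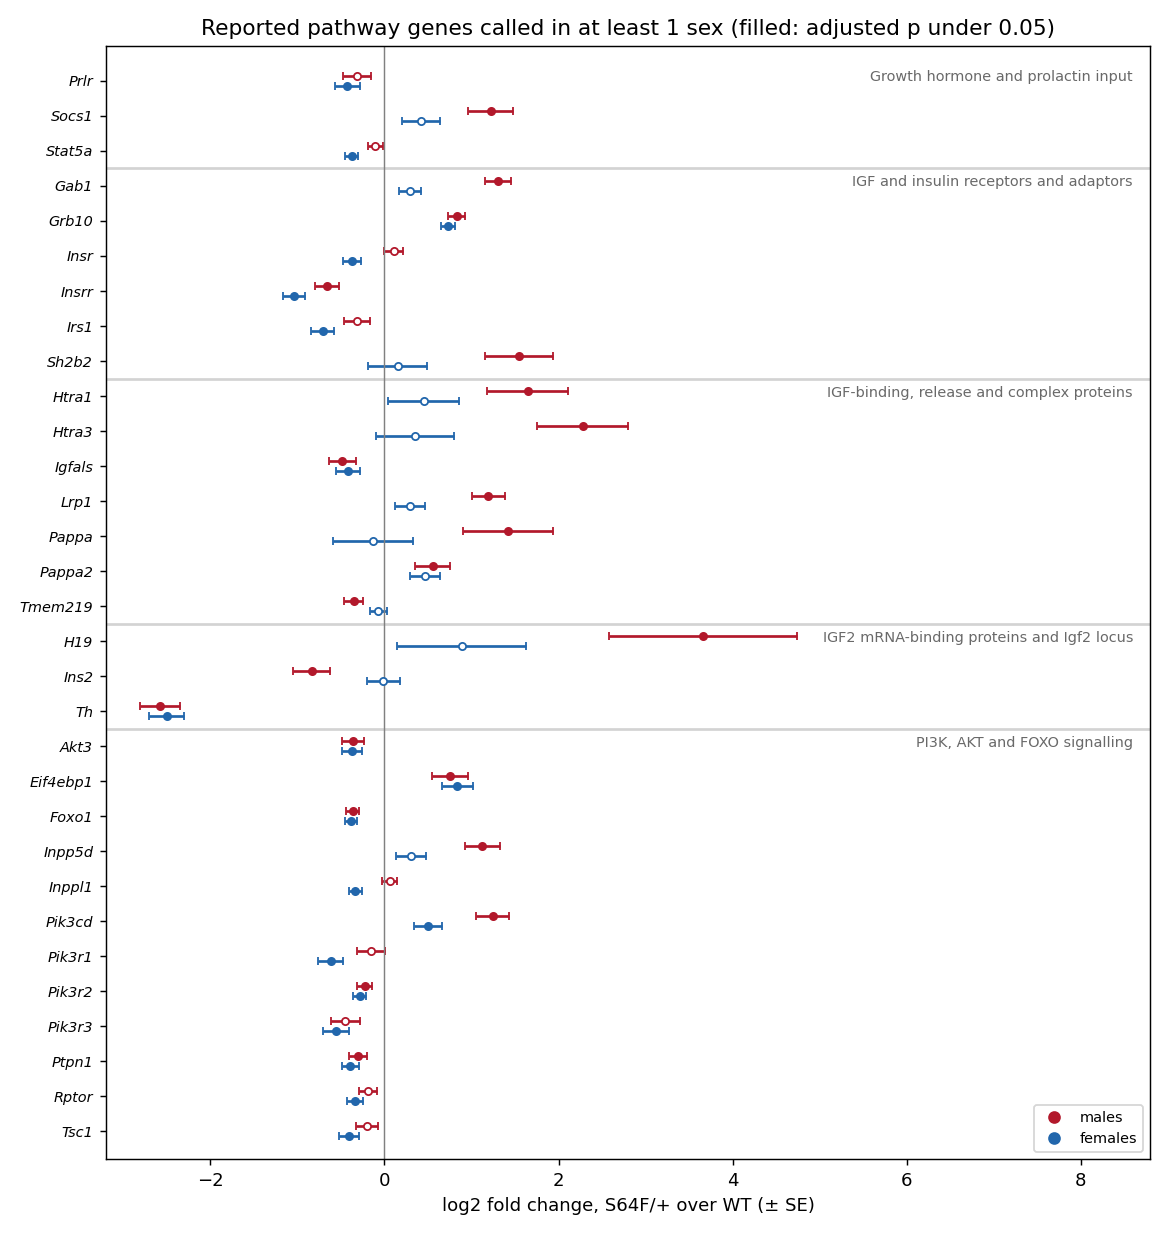
Log2 fold change of S64F/+ over WT with its SE in males and females for the reported genes of 5 pathway lists called in at least 1 sex; filled points passed an edgeR adjusted p under 0.05. Genes of the binding and release list reach 2.28 in males and at most 0.47 in females, whereas Grb10, Insrr, Foxo1 and Th lie on the same side in both sexes.

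Finally, genes with the most similar pattern were sought within groups, from log2 CPM after subtraction of the group means, over the 18 libraries and among 13170 genes whose mean reached 1 CPM. Depth and islet composition differed between these libraries, so the coefficients are descriptive. The partners were picked as the highest among 13170 genes, which by itself favours high coefficients. What chance would give was not tested. Igfbp4 had the closest partners, Itm2a (Pearson r 0.97, Spearman rho 0.98), Cmtm3 (0.96 and 0.95) and the collagen-processing enhancer gene Pcolce (0.96 and 0.96). Igf1 was nearest to Fads3 (0.90 and 0.88), Prcp (0.90 and 0.91) and Mmp15 (0.90 and 0.92). Igf1r was nearest to Utp20 (0.90 and 0.78), and Igfbp5 to Foxo1 (0.89 and 0.87). Igfbp6 was nearest to Ptgis (0.89 and 0.83), Igfbp7 to Cd151 (0.87 and 0.86), Igfbp3 to Smco4 (0.82 and 0.78) and Igfbpl1 to Dhrs4 (0.81 and 0.85). The coefficients were highest for Igfbp4 and lowest for Igfbpl1 and Igfbp3.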

How the data were processed

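The authors deposited raw counts per gene and library. The build GRCm38 and the tools FastQC, MultiQC, STAR, featureCounts and DESeq2 appear in the submitters' processing notes, with no version or role. Neither the annotation nor the strand setting nor the treatment of multi-mapped reads is given in the sources used here. A second deposited value, FPKM, was for each of 33562 genes with a count the same as count over column total over a whole-number gene length. FPKM served for levels between genes and was not tested. Of 53900 rows, 99 spike-ins at 0 counts were left out.

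Groups came from the sample titles. The software was edgeR 4.0.16 and limma 3.58.1 under R 4.3.3. Genes passed filterByExpr by group (minimum count 10, minimum total 15). Libraries were scaled by TMM, and all 18 libraries entered 1 robust quasi-likelihood fit with a coefficient for each group. Tests were two-sided with Benjamini-Hochberg adjustment over 18364 genes and a threshold of 0.05. The biological coefficient of variation was 24.4%. The procedure was tested on simulated counts. Alternatives were library-size scaling, DESeq2 size factors in edgeR, DESeq2 1.42.0, no filter, only the groups compared, a replicate block, leaving out each library, and 2 other length scalings of the levels.

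No library repeated another (chi-square per degree of freedom between replicates 19.9 or more). Deviations of same-numbered female libraries correlated at 0.110 to 0.418 in 5 of 5 pairs, over the criterion of 0.1. Differently numbered female libraries correlated at -0.389 to 0.494, with 6 of 20 pairs over 0.1. Whether female numbers mark pairs is therefore uncertain, and the labels do not say. The numbers entered only the replicate block, not the main fit.

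The members, pathway lists and markers were chosen with earlier results of these data known. Named genes were the members, up to 3 called genes per list and contrast (all where 5 or fewer were called), and the 3 nearest in pattern. Pappa, Pappa2, Tmem219 and the remaining genes of the pathway plot were named after their values were seen. A called gene of the PI3K list is counted but not reported here.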

Additional observations from a re-analysis of the deposited data

Results flagged for a closer look

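The male genotype effect on Igf1 differed from the female one by 1.72 ± 0.36 on the log2 scale (edgeR adjusted p 0.0172), and that on Gab1 by 1.01 ± 0.19 (edgeR adjusted p 0.0107). Igf1 rose in both sexes, by more in males. Gab1 rose in males, at 24.2 CPM in S64F/+ and 9.76 CPM in WT islets, and was not called in females, at 17.9 CPM in S64F/+ and 14.6 CPM in WT islets (0.29, edgeR adjusted p 0.109). The mean WT level of each gene was lower in males than in females.

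Igf2 in female S64F/+ 1, at 0.904 CPM, stood far from the other 4 libraries of its group, which had 0.192 to 0.374 CPM. The gap made up 0.745 of the group's range, above the 95% limit of Dixon's test for 5 values. Igfbp3 in male WT 2, at 71.4 CPM, stood above the other male WT libraries at 62.4 to 63.6 CPM, with a gap of 0.869 of the range, above the limit for 4 values. Chance flags about 1 in 20 such groups, and 2 of 40 gene and group sets were flagged.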

How the results depend on the processing

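Of 1167 alternative values of 50 member results, 1110 kept direction and side of the threshold, 11 lost the call, 28 gained it and 18 changed sign, all of the last without a call. The number of members called in males (5) ran from 3 to 6 when 1 library was left out, in females (4) from 4 to 5, for the difference between the sexes (1) from 1 to 3, between S64F/+ sexes (2) from 1 to 3 and between WT sexes it was 0 throughout. Library-size scaling gave 3 for the difference between the sexes and 4 between S64F/+ sexes. It moved the median log2 value of all genes to 0.19 in males, 0.25 for the difference between the sexes and 0.18 between S64F/+ sexes. Without female S64F/+ 1 or female WT 4 the difference between the sexes was called for 3 members and without female S64F/+ 3 for 2, and in males 3 were called without male S64F/+ 1 or male WT 1. DESeq2 gave 2 for the difference between the sexes and 1 between WT sexes.

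Sign changes with library-size scaling were Igf2 in males (0.016), Igfbp7 in the difference between the sexes (0.062) and Igf2 between WT sexes (-0.068). With 1 library left out they were Igfbp5 in females (range -0.27 to 0.056), Igfbp2 in the difference between the sexes (-0.83 to 0.12), and, between WT sexes, Igf2 (-0.15 to 0.19), Igfbp2 (-0.56 to 0.22), Igfbp5 (-0.30 to 0.020) and Igfbp7 (-0.18 to 0.021). The cause was not tested. Calls that other settings added, beside those in the report, were Igf2 in the difference between the sexes (1.45) and between S64F/+ sexes (1.45) without female S64F/+ 1, Igf1r in the difference between the sexes (0.48) without female WT 4, and Igfbp3 in both (0.79 and 0.55) without female S64F/+ 3. Between S64F/+ sexes, Igfbp3 also passed without male S64F/+ 4 (0.53), Igfbp6 without female S64F/+ 4 (2.73) and with DESeq2 (2.17), and with library-size scaling both passed (0.61 and 2.36), as did Igfbp3 in the difference between the sexes (0.90). Dividing levels by TMM-scaled totals moved 2 of 40 group levels and no rank, and dividing by merged exons moved 29. When 1 library was left out, the number of genes called in males ran from 4 to 8 in the binding and release list (7 with all libraries) and from 4 to 9 in the PI3K list (7), and in females from 0 to 2 in the binding and release list (1), from 10 to 17 in the PI3K list (12), from 1 to 2 in the Igf2 locus list (1) and from 1 to 3 in the growth hormone and prolactin list (2). With only the groups compared in the fit, the PI3K list had 12 called in males and 7 in females, and in females the binding and release list 0 and the growth hormone and prolactin list 1. With no filter the binding and release list had 4 in males and 0 in females, and the growth hormone and prolactin list 1 in females. DESeq2 and the replicate block each gave 2 in the binding and release list in females. Depth limits Igf2 and Igfbp2 most. The replicate block gave 6 members called in males, where Igfbp6 passed (2.04, edgeR adjusted p 0.0152), and 5 in females, where Igf2 passed, and changed no other call among members. Same-numbered male libraries correlated at -0.249 to 0.189, and differently numbered male libraries at -0.408 to 0.552. These correlations cannot decide whether male numbers mark pairs, and the labels do not say. For female libraries the pairing is uncertain too.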
